A study of Solanum lycopersicum with 2 samples.

Results

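The compound leaf patterning genes described here are 6 transcriptional regulators of tomato (Solanum lycopersicum) leaf development, chosen by their identifiers among 25923 genes listed in either of 2 libraries: the KNOX homeobox genes TKN2 (Solyc02g081120.2) and TKN1 (Solyc04g077210.2), the TCP gene LANCEOLATE (Solyc07g062680.1), the NAC gene GOBLET (Solyc07g062840.2), the Aux/IAA gene ENTIRE, also called IAA9 (Solyc04g076850.2), and the zinc finger gene LYRATE (Solyc05g009380.2). All 6 were listed in both libraries. They were picked by gene identity, at a time when earlier results of these data were known. One library was made from young leaves and the other from anthers, the floral organs in which pollen forms, in untreated plants of the cultivar Moneymaker that were 8 weeks old and grown in a glasshouse. The anthers came from several developmental stages. Neither the stage of the leaves nor the number of plants is stated in the labels.

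A tomato leaf is compound: its primordium stays able to form new organs for some time and puts out leaflets along its margin. KNOX proteins prolong this phase, while TCP proteins of the CIN type, such as LANCEOLATE, push the leaf towards maturation. NAC proteins such as GOBLET mark the boundaries between leaflets, and ENTIRE restrains the response to the hormone auxin between them. These genes are known mainly for their action in meristems and young primordia, small parts of a shoot.

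Transcripts were counted by MACE, which sequences a tag from near the 3′ end of each polyadenylated transcript, so that reads are meant not to scale with transcript length. The young leaf library held 11534512 mapped reads and the anther library 12411606, and 1 read was worth 0.0867 RPM (reads per 1000000 mapped reads) in young leaf and 0.0806 RPM in anther. A single library stood for each tissue, which gives no replicate error and allows no test. The 95% intervals below are exact Poisson intervals for single levels and exact conditional intervals for ratios, and they cover counting error only. A log2 ratio is that of RPM + 1 in young leaf over RPM + 1 in anther, which understates the difference of low genes, and genes past 1 in either direction are called at least 2-fold apart. The files pair no identifier with a gene name, so the tissue labels could not be checked with marker genes, and other genes of the leaf pathway are not analysed here.

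By the log2 ratio with a pseudocount of 1 RPM, none of the 6 genes was at least 2-fold higher in young leaf, and 1 gene, GOBLET, was at least 2-fold lower there. The first count turns on TKN1, whose log2 ratio from 7 and 2 reads was 0.47, but 1.44 with a pseudocount of 0.1 RPM and 1.91 with none. As background, 17137 genes averaged at least 1 RPM over the libraries and are called tested genes. Of these, 17.5% stood at least 2-fold higher and 21.5% at least 2-fold lower in young leaf. Over all 25923 listed genes, with no filter as for the 6 genes, the shares were 12.1% and 15.4%. The median log2 ratio of the 6 genes was -0.30, against -0.10 over all 25923 listed genes, since 2 of the 6 are not tested genes, and -0.15 over the tested genes alone. The interval of the plain RPM ratio lay wholly below 1 for 3 of the 6, GOBLET, LYRATE and ENTIRE, and wholly above 1 for 0. Of the tested genes, 41.7% had it wholly below 1 and 31.7% wholly above 1, and the 6 genes are too few to set against these shares. Only 4 of the 6 reached a mean of 1 RPM: TKN2, GOBLET, ENTIRE and LYRATE. LANCEOLATE and TKN1 stayed below it, with means of 0.669 and 0.384 RPM. GOBLET reached that mean through its anther level alone.

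**Figure D1:**
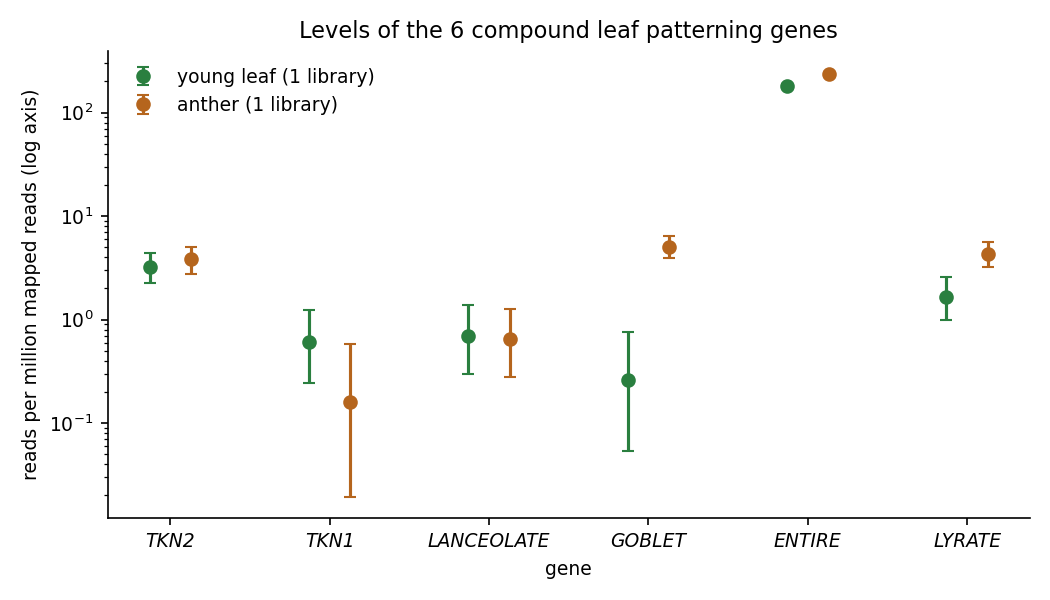
Levels of the 6 genes in reads per 1000000 mapped reads (log axis), with young leaf left of anther for each gene. Points are single libraries and bars are 95% Poisson intervals of the counts. The bars of GOBLET, ENTIRE and LYRATE stand apart between the tissues, those of TKN2, TKN1 and LANCEOLATE overlap, and ENTIRE lies far above the other genes.

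The boundary gene GOBLET differed most. It encodes a NAC domain protein of the same kind as CUP-SHAPED COTYLEDON of Arabidopsis, and its transcript is a target of the microRNA miR164. It had 3 reads in young leaf (0.260 RPM, interval 0.0536 to 0.760) and 63 reads in anther (5.08 RPM, interval 3.90 to 6.49). The young leaf level rests on these few reads. The ratio of young leaf to anther was 0.0512 with an interval of 0.0103 to 0.157, which is 19.5-fold lower in young leaf with an interval of 6.38 to 97.2. The log2 ratio was -2.27, but -0.94 with a pseudocount of 5 RPM, which is about as large as its anther level and ends the 2-fold call. In the class of 7848 tested genes that averaged 1 to 10 RPM, 24.3% stood at least 2-fold lower in young leaf, and 8.32% had a lower log2 ratio than GOBLET. The ratio's interval lay wholly below 0.5 for GOBLET, as it did for 20.4% of that class.

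LYRATE had the next lowest ratio of young leaf to anther. It encodes a C2H2 zinc finger protein related to JAGGED of Arabidopsis, which promotes the outgrowth of leaves and floral organs, and tomato plants without it form extra leaflets. LYRATE had 19 reads in young leaf (1.65 RPM, interval 0.992 to 2.57) and 53 reads in anther (4.27 RPM, interval 3.20 to 5.59). The ratio of young leaf to anther was 0.386, with an interval of 0.216 to 0.662. Its log2 ratio of -0.99 fell just short of the 2-fold threshold, and the call turned with the setting: it was -1.32 with a pseudocount of 0.1 RPM and -1.13 when libraries were scaled to the reads on listed genes. An interval wholly below 1 was found for 37.4% of the class averaging 1 to 10 RPM, so the interval of LYRATE does not set it apart.

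The KNOX genes did not share a detectable difference. TKN2, the tomato counterpart of SHOOT MERISTEMLESS of Arabidopsis, which keeps the shoot meristem undifferentiated, had 37 reads in young leaf (3.21 RPM, interval 2.26 to 4.42) and 47.3 reads in anther (3.81 RPM, interval 2.78 to 5.04). The fraction in the anther count is taken as reads shared with another place in the genome, which the file headers do not state. The ratio of TKN2 was 0.841 with an interval of 0.535 to 1.33, so a difference of 2-fold in either direction lies outside it. TKN1, the counterpart of BREVIPEDICELLUS of Arabidopsis, had 7 reads in young leaf (0.607 RPM, interval 0.244 to 1.25) and 2 reads in anther (0.161 RPM, interval 0.0195 to 0.582). Its ratio was 3.77 with an interval of 0.717 to 37.2, which reaches from a lower to a much higher level in young leaf. The reads of TKN1 are too few to tell these apart. Taken as a sum, TKN1 and TKN2 had 3.81 RPM in young leaf and 3.97 RPM in anther, a ratio of 0.960 with an interval of 0.628 to 1.48.

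LANCEOLATE had the same read number in both tissues. It encodes a TCP transcription factor whose transcript is a target of miR319, and the dominant mutation that gave it its name, which escapes this microRNA, turns the compound leaf into a simple one. There were 8 reads in young leaf (0.694 RPM, interval 0.299 to 1.37) and 8 reads in anther (0.645 RPM, interval 0.278 to 1.27). The ratio of 1.08 had an interval of 0.352 to 3.29. Equal counts of this size leave room for a difference of more than 2-fold in either direction, so they do not show equal levels.

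ENTIRE was abundant in both tissues and differed little. Aux/IAA proteins repress auxin response genes until auxin triggers their breakdown. Loss of ENTIRE gives a simplified leaf and, in the flower, fruit that sets without pollination. It had 2078 reads in young leaf (180 RPM, interval 172 to 188) and 2960 reads in anther (238 RPM, interval 230 to 247). The ratio was 0.755 with an interval of 0.714 to 0.799, and the log2 ratio was -0.40. The deep count makes this interval narrow, and 53.7% of the 1178 genes averaging 100 to 1000 RPM had an interval wholly below 1. Relative to the median of all tested genes the log2 difference of ENTIRE was -0.25. In that class 44.6% of the genes had a lower log2 ratio, so ENTIRE sat near its middle.

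**Figure D2:**
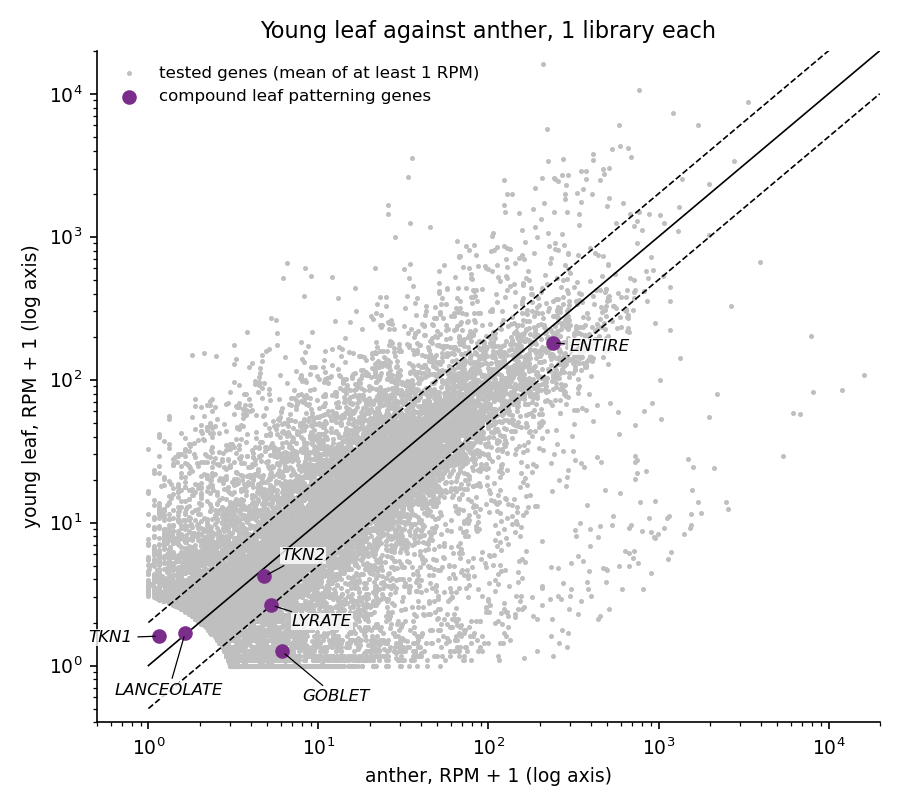
Level in young leaf against level in anther, both as RPM + 1 on log axes, for 17137 tested genes (grey) and the 6 genes (purple). The solid line marks equal levels and the dashed lines 2-fold differences. GOBLET lies beyond the dashed line on the anther side, LYRATE lies at it, and the other 4 genes lie between the dashed lines.

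The genes spanned a wide range of levels, and their order differed between the tissues. ENTIRE alone held 96.6% of the reads of the 6 genes in young leaf and 94.5% in anther. It stood above 97.6% of the listed genes in young leaf and above 98.1% in anther. TKN2 stood near the middle, above 45.6% of the listed genes in young leaf and 48.0% in anther. GOBLET stood above only 16.5% of the listed genes in young leaf, against 52.2% in anther. In young leaf the order from high to low was ENTIRE, TKN2, LYRATE, LANCEOLATE, TKN1 and GOBLET. The count of ENTIRE was 56.2 times that of TKN2 (interval 40.6 to 80.0), and TKN2 was 1.95 times LYRATE (interval 1.09 to 3.58). The remaining neighbours in that order were not separated beyond counting error. In anther the order was ENTIRE, GOBLET, LYRATE, TKN2, LANCEOLATE and TKN1. ENTIRE was 47.0 times GOBLET there (interval 36.6 to 61.3), and TKN2 was 5.88 times LANCEOLATE (interval 2.75 to 14.4). GOBLET, LYRATE and TKN2 were not separated from each other as neighbours, nor was LANCEOLATE from TKN1. GOBLET was thus the lowest of the 6 in young leaf and the second in anther.

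Ratios between the genes do not depend on how the libraries were scaled. For all 15 pairs the ratio of reads in young leaf was set against the same ratio in anther as a conditional odds ratio, with an exact interval. With few reads this estimate is somewhat smaller than the plain quotient of the 2 ratios. The interval excluded 1 in 8 pairs, and all 5 pairs with GOBLET were among them. The same share over pairs of other genes was not computed, so these counts do not set the 6 genes apart. There were 12.3 reads of TKN2 per read of GOBLET in young leaf and 0.746 in anther, an odds ratio of 16.3 with an interval of 4.71 to 87.4. For LANCEOLATE the ratio to GOBLET was 2.67 in young leaf and 0.127 in anther, an odds ratio of 19.7 with an interval of 3.80 to 139. For LYRATE the ratio to GOBLET was 6.33 in young leaf and 0.841 in anther, an odds ratio of 7.43 with an interval of 2.03 to 41.3. GOBLET was therefore lower in young leaf relative to each of the other genes.

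The other 3 pairs whose interval excluded 1 all held LYRATE. TKN2 had 1.95 reads per read of LYRATE in young leaf and 0.887 in anther, an odds ratio of 2.18 with an interval of 1.06 to 4.61. ENTIRE had 109 reads per read of LYRATE in young leaf and 55.8 in anther, an odds ratio of 1.96 with an interval of 1.14 to 3.51. TKN1 had 0.368 reads per read of LYRATE in young leaf and 0.0377 in anther, an odds ratio of 9.45 with a wide interval of 1.61 to 101. Between TKN2 and ENTIRE the odds ratio was 1.12 with an interval of 0.706 to 1.77. The intervals are not adjusted for the number of pairs, and pairs that share a gene share its counts.

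**Figure D3:**
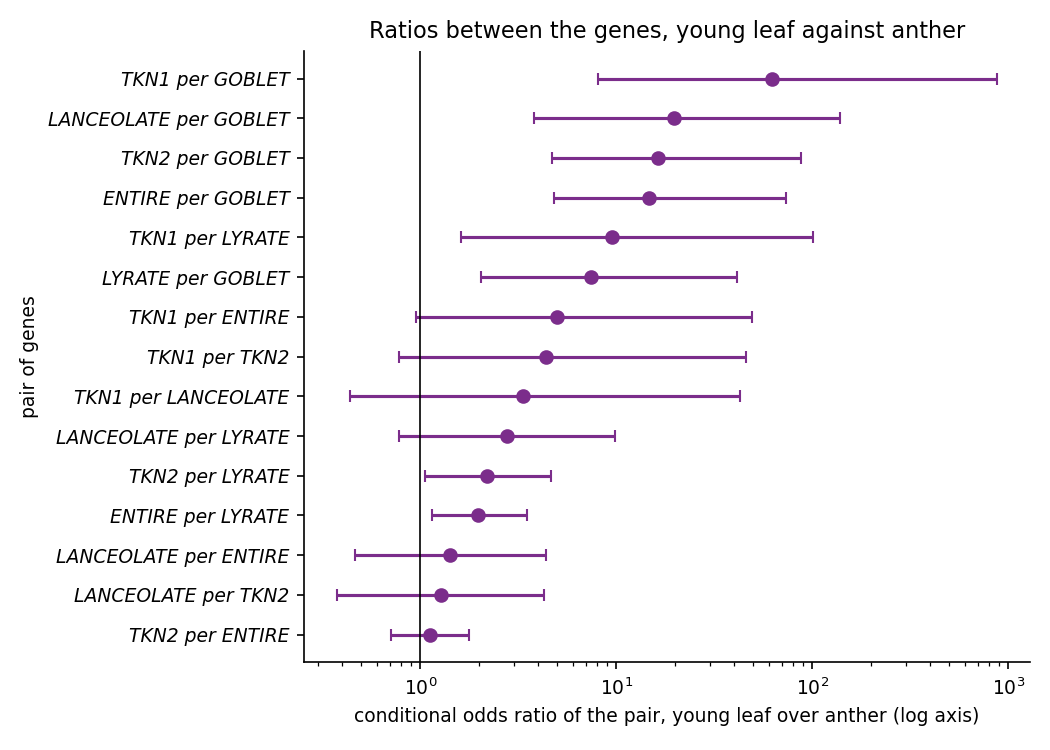
For each pair of genes, the conditional odds ratio of their reads in young leaf over anther (log axis), with the exact 95% interval as a bar and a line at 1. The 5 pairs with GOBLET all lie to the right of the line, with point values from 7.43 to 62.3.

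The height of the highest read peak, which the files give without its computation, was set against the reads of each gene. ENTIRE had a peak of 458 in young leaf and 736 in anther, 22.0% and 24.9% of its reads. The median was 25.1% in each library over 7827 genes with 100 or more reads in each. Genes with a peak above their read number in either library were left out. For LANCEOLATE the peak was 8 in both libraries, as high as its read number. Of the 5 genes with 8 reads in both libraries it was the only one with such a peak, a feature singled out after its values were seen. Genes of like read number are those with no less than 0.8 times the reads of a gene, and no more than those reads divided by 0.8. For LANCEOLATE in young leaf, 5.88% of 1174 such genes had a peak at or above their read number. In anther 5.03% of 1232 genes did. Genes with a peak above their read number were not left out of these sets. In young leaf TKN1 had a peak of 6 for its 7 reads. The peak of GOBLET made up 66.7% of its few reads in young leaf and 31.7% in anther, where the median over genes of like read number was 33.8%. TKN2 had 27.0% in young leaf and 31.7% in anther, and LYRATE had 36.8% in young leaf and 24.5% in anther.

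Some of the genes lie in the same stretch of a chromosome, though none are adjacent. LANCEOLATE and GOBLET lie on chromosome 7, 16 identifier steps apart, with 12 listed genes between them. Identifiers in this naming scheme increase along the chromosome. Of the 8 tested genes between LANCEOLATE and GOBLET, 2 were at least 2-fold higher and 1 at least 2-fold lower in young leaf, with a median log2 ratio of -0.09. ENTIRE and TKN1 lie on chromosome 4, 36 steps apart with 30 listed genes between them, and the 21 tested ones had a median of 0.48, with 7 at least 2-fold higher and 2 at least 2-fold lower in young leaf. TKN2 lies on chromosome 2 and LYRATE on chromosome 5. The strand label of LYRATE is the opposite of that of the other 5 genes.

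Within 20 identifier steps on either side, few tested genes shared the low ratio of young leaf to anther of GOBLET. Genes averaging under 1 RPM are left out of the counts of flanking genes. The next gene after GOBLET is such a gene, with 0.217 RPM in young leaf and 0.0806 RPM in anther. Of the 24 tested flanking genes of GOBLET, 3 were at least 2-fold lower and 3 at least 2-fold higher in young leaf. Their median was 0.08, and 1 had a lower log2 ratio than GOBLET itself, as had 8.21% of all tested genes. LYRATE had 28 tested flanking genes with a median of -0.05. Of these, 5 had a lower log2 ratio than LYRATE, as had 21.7% of all tested genes. TKN2 was flanked by 22 tested genes, of which 3 were at least 2-fold higher and 7 at least 2-fold lower in young leaf. The surroundings of TKN1 leaned to young leaf, with 10 of 20 tested genes at least 2-fold higher there, 1 at least 2-fold lower and a median of 1.05. ENTIRE had 28 tested flanking genes with a median of 0.30. LANCEOLATE also had 28, GOBLET among them, with a median of -0.30.

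**Figure D4:**
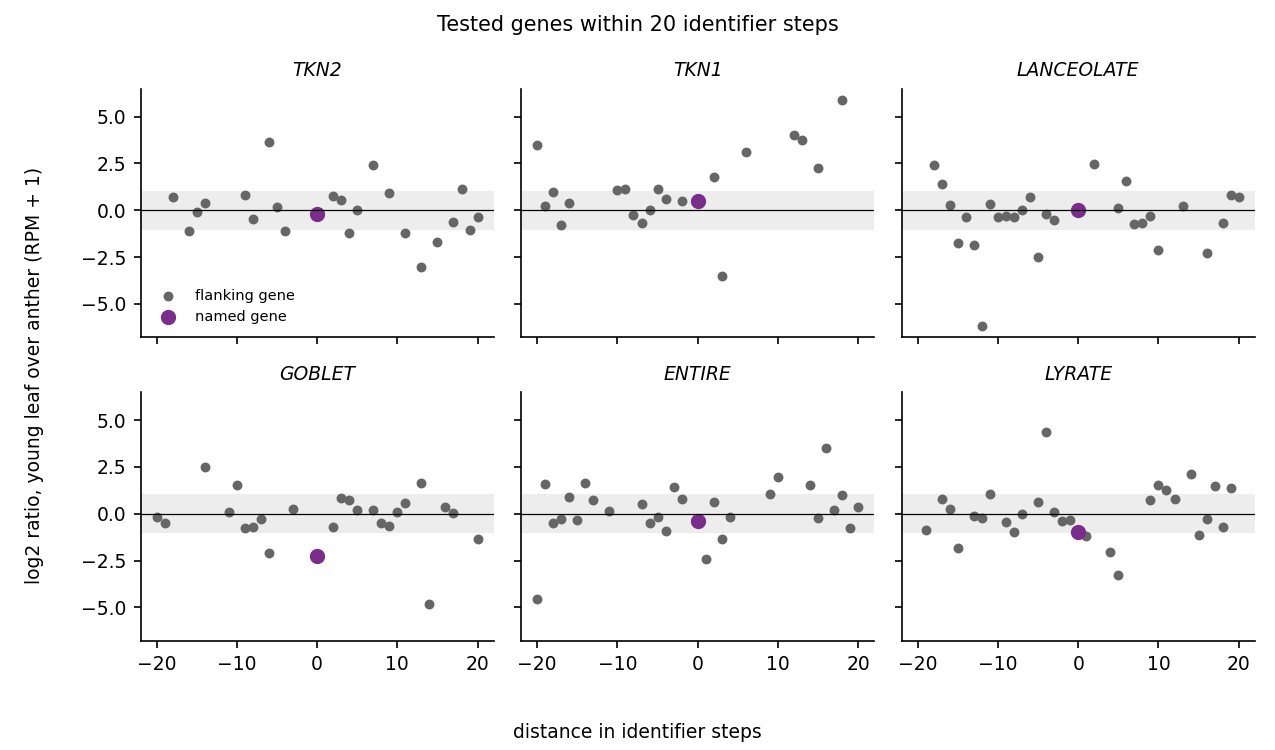
Log2 ratio of young leaf over anther (RPM + 1) for tested genes within 20 identifier steps of each of the 6 genes, which are drawn in purple at 0. The grey band spans less than 2-fold. GOBLET lies below all but 1 of its 24 flanking genes, and 10 of 20 genes around TKN1 lie above the band. Of all tested genes, 8.21% have a lower log2 ratio than GOBLET and 17.5% are at least 2-fold higher in young leaf.

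Many genes shared the pattern of levels. By distance over the 2 libraries in log2(RPM + 1), 102 tested genes lay within 0.25 of GOBLET, 124 of LYRATE, 227 of TKN2 and 23 of ENTIRE. The tested gene with whole read numbers closest to GOBLET was Solyc05g013420.1, with 0.260 RPM in young leaf and 5.24 RPM in anther (3 and 65 reads) at a distance of 0.0378. No tested gene lay within 0.25 of TKN1 or LANCEOLATE, whose levels are under the mean of 1 RPM that the tested genes reach. The tested gene with whole read numbers closest to TKN1 was Solyc02g090380.2, at a distance of 0.756, with 1.47 RPM in young leaf and 0.564 RPM in anther. The files do not name these 2 genes.

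In whole organs, fewer cells that express a gene and less of its RNA per cell cannot be told apart. The mix of anther stages and the age of the leaves cannot be told apart from the tissue either.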

How the data were processed

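The estimated counts (all hits per gene) and the RPM values were deposited by the authors, and the RPM column is named as transcripts scaled to 1000000 per the file headers. It equalled 1000000 times the count over the mapped reads of its library, within 3.42e-08, with no length correction. Counts were fractional (beyond 1e-06 reads) for 19.5% of the genes in young leaf and 20.8% in anther. The authors deposited the highest peak as a signal value without its computation. FastQC is named per the submitters' processing notes. An aligner, counting tool, genome build or annotation release is not given in the sources used here.

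Genes were taken by identifier and named as in the selection rule. Of the 6 names, 5 occur among the RefSeq genes of assembly SLM_r2.1, each on the chromosome the files give, but 0 of the 25923 identifiers do. The members and lists were chosen with earlier results of these data known. All members are named, and of other genes only those closest to the members of highest and lowest log2 ratio. Counts were rounded for intervals. A gene listed in 1 file only was taken as 0 in the other. A pseudocount of 1 RPM and a mean of at least 1 RPM were used, and alternatives are given in the closing section. Python 3.11.15 with scipy 1.17.1 and edgeR 4.0.16 (TMM scaling only) were used. The computations were tested on simulated data.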

Additional observations from a re-analysis of the deposited data

How the results depend on the processing

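The log2 ratios of the 6 genes kept their sign under 3 scalings. Other settings were pseudocounts of 0.1 and 5 RPM and, an alternative chosen after seeing the data, no pseudocount. A pseudocount cannot change the sign of a log2 ratio, so only the scalings could have done so. LANCEOLATE had equal read numbers, so its sign comes from the scaling alone. TKN2 ranged from -0.26 to -0.08, LANCEOLATE from 0.01 to 0.11 and LYRATE from -1.37 to -0.48. GOBLET moved from -2.27 to -3.85 with a pseudocount of 0.1 RPM, to -0.94 with 5 RPM, to -4.29 with none and to -2.62 with libraries scaled by listed genes. TKN1 moved from 0.47 to 1.44 with 0.1 RPM and 1.91 with none, and ENTIRE from -0.40 to -0.26 with TMM scaling or with the median ratio set to 1. The 1 gene at least 2-fold lower in young leaf became 2 with a pseudocount of 0.1 RPM or scaling to listed genes, when LYRATE joined GOBLET, and 0 with 5 RPM or a mean of at least 10 RPM, which leaves ENTIRE alone. The count of genes at least 2-fold higher was 0 in each setting in which it was taken. With a pseudocount of 0.1 RPM, TKN1 was not counted because of its low mean. No count was taken without a pseudocount, where TKN1 had a log2 ratio of 1.91, past the threshold. The median of -0.30 is over all 6 members, without the filter. Among the 3 tested members with whole counts, GOBLET, LYRATE and ENTIRE, the median was -0.99. That set drops TKN2 for its fractional count and also TKN1 and LANCEOLATE for their low means.

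Among all tested genes, the share at least 2-fold higher in young leaf (17.5%) was 19.7% and 11.5% with pseudocounts of 0.1 and 5 RPM, 19.4% with TMM, 19.5% with the median ratio set to 1, 12.1% with no filter, 19.4% for genes averaging 10 RPM or more and 7.17% at a log2 threshold of 2. The share at least 2-fold lower (21.5%) was 24.4% and 13.2% with those pseudocounts, 23.7% with scaling to listed genes, 19.4% with TMM and with the median ratio set to 1, 15.4% with no filter, 19.2% at a mean of at least 10 RPM and 9.98% at a threshold of 2. The median over all tested genes (-0.15) was -0.17 and -0.10 with those pseudocounts, -0.21 with scaling to listed genes, -0.03 with TMM, -0.02 with the median ratio set to 1, -0.10 with no filter and -0.11 for genes averaging 10 RPM or more. No paired analysis was possible because there was a single library for either tissue, and no replicate could be left out. Depth limits TKN1, LANCEOLATE and the young leaf level of GOBLET, which rest on 8 reads or fewer.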
